A study of Homo sapiens with 6 samples.

Results

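The DNAJ genes encode the J domain cochaperones of HSP70. Their mRNA was measured in untreated A375 cultures and in separate A375 cultures treated with an enzyme that degrades methionine. All protein-coding genes whose symbol begins with DNAJA, DNAJB or DNAJC followed by a number were taken, which gave 45 of 19885 protein-coding genes and of 58523 genes with a transcript in the files. The 45 are 44 DNAJ genes and DNAJC25-GNG10, a read-through of DNAJC25 into its neighbour. By type, 19 pseudogenes with a DNAJ symbol (among them DNAJB3) and 6 antisense or other noncoding genes were left out.

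A375 is an established human melanoma line from ATCC. The line is the same in all 6 libraries: 3 cultures (control replicates 1 to 3) were left untreated, and 3 cultures (treated replicates 4 to 6) received hMGL for 24 h. hMGL is an engineered human enzyme that degrades methionine, and no dose was found in the labels. The labels call the 6 cultures independent, and the untreated cultures are not described as having received buffer or an inactive enzyme. The design holds 1 line and 1 time point, and whole cultures were lysed, so less RNA per cell and fewer cells in one state cannot be told apart.

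A J domain protein binds an HSP70, stimulates its ATPase and so locks the HSP70 onto a client protein, and a nucleotide exchange factor then resets the cycle. Class A members resemble bacterial DnaJ in full, class B members keep the J domain and the region rich in glycine and phenylalanine that follows it, and class C members share the J domain alone. Class A and many class B proteins handle unfolded clients in the cytosol, while most class C proteins fix HSP70 to a place or task, such as the ER lumen, the mitochondrial import motor, the ribosome or clathrin-coated vesicles.

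Libraries held 50760266 to 59954677 estimated counts, and the common coefficient of variation between replicates was 0.074. Of 9 melanoma and melanocyte markers 7 reached 1 CPM (counts scaled to library size) in at least 1 library, the rule for all types here. The sum of the 9 was 997.4 to 1069.9 CPM in controls and 1141.8 to 1183.7 CPM in treated cultures, mostly from SOX10, AXL and NGFR. Pigment genes were low: PMEL was at 0.511 to 0.61 CPM in controls and 1.97 to 2.16 CPM in treated cultures. MLANA was at 0.715 to 1.02 CPM over all libraries, and TYR and DCT stayed under 1 CPM. The markers went different ways: NGFR was higher (103.0 to 109.4 CPM in controls and 305.2 to 327.7 CPM in treated cultures), while SOX10 (395.7 to 453.3 and 345.7 to 357.5 CPM) and S100B (37.7 to 39.3 and 4.89 to 7.07 CPM) were lower. Fibroblast markers reached 1 CPM for 3 of 6 genes (sum 8.21 to 8.33 CPM in controls and 3.09 to 3.44 CPM in treated cultures), epithelial markers for 1 of 5, endothelial markers for 3 of 4, leukocyte markers for 1 of 5 and erythroid markers for 0 of 3. The part of these genes in the results below was not tested.

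After 24 h of hMGL the family did not move as a block: 17 members were higher, 15 were lower, 9 did not pass the test, and 4 were too low to be tested (edgeR quasi-likelihood F test, Benjamini-Hochberg adjusted p under 0.05 over all genes). The share called, 78.05% of 41, lay near the background, which was 69.4% of all 22580 genes tested (34.9% higher and 34.5% lower) and 78.3% of the 15421 protein-coding genes tested (38.0% higher and 40.3% lower). Most changes were small. Only DNAJA1, DNAJB2 and DNAJB9 changed by at least 2-fold, 3 of 41, where 27.2% of all genes and 26.5% of protein-coding genes did. The median size of the log2 fold change was 0.34 for the family, 0.59 for all genes and 0.58 for protein-coding genes, and no test was made of that gap. The signed median was -0.03 for the family and -0.02 for all genes. In 34 of 41 members the 3 treated libraries lay wholly above (18) or wholly below (16) the 3 controls, against a background of 73.3% of all genes and 81.0% of protein-coding genes. When a change had to exceed 1.5-fold (glmTreat), 5 members were higher and 5 lower, and the background was 35.4% of all genes. Every fold change here is relative to the other genes of a library.

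**Figure D1:**
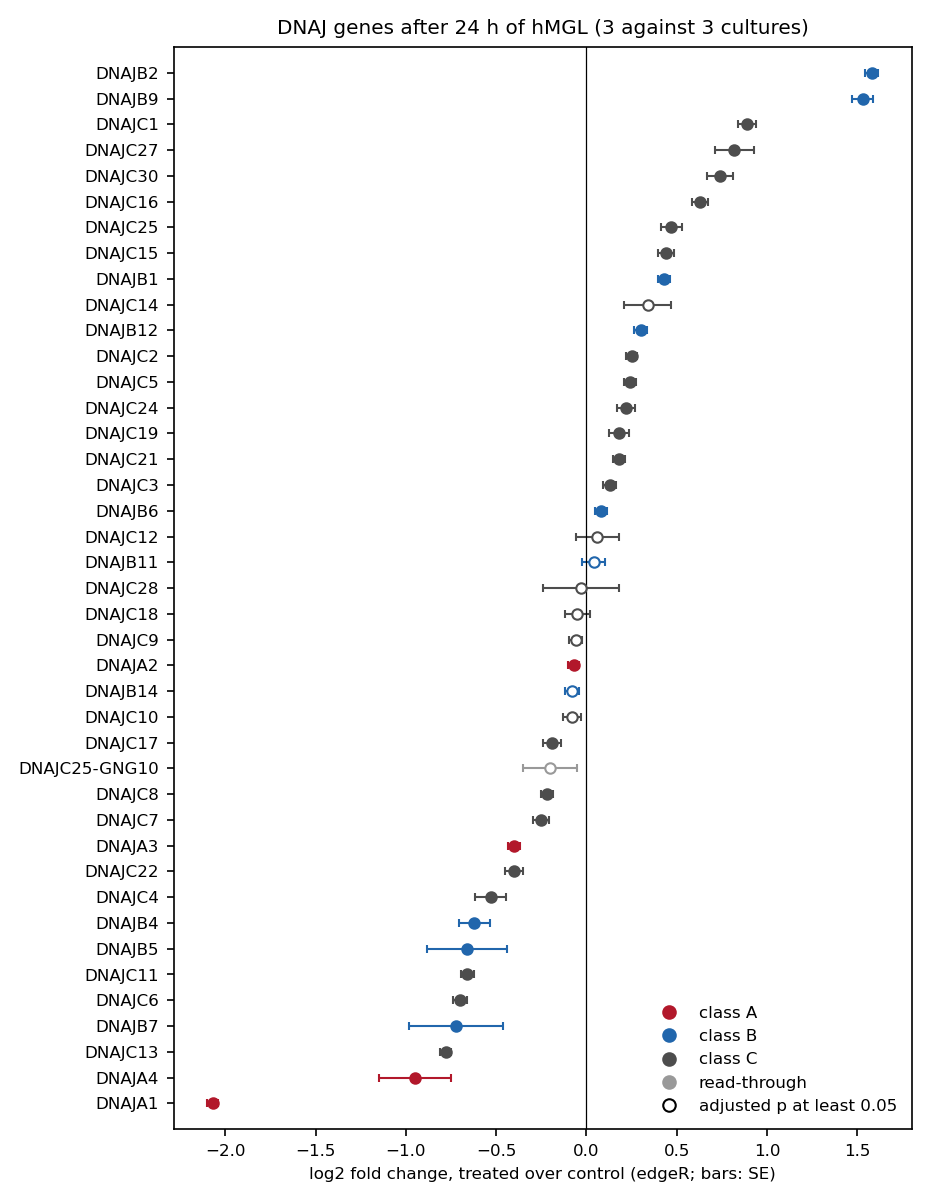
Log2 fold change, treated over control, of the 41 DNAJ genes tested, sorted by value, with SE bars, colours for class A, B, C and the read-through, and open points for an adjusted p of at least 0.05. DNAJA1 stands alone at the bottom at -2.07, DNAJB2 and DNAJB9 stand alone at the top at 1.58 and 1.53, and the rest lie between -0.95 and 0.89.

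The largest fall was in DNAJA1 (ENSG00000086061, chromosome 9 at 33025211 to 33039907, GRCh38), the main cytosolic class A partner of HSP70. Its level was 401.3, 387.9 and 397.6 CPM in the 3 controls and 92.7, 96.3 and 94.4 CPM in the 3 treated cultures. The groups were far apart and each was tight. The fall was 4.19-fold (log2 fold change -2.07 ± 0.03 SE, adjusted p = 4.93e-19 by edgeR, n = 3 and 3). It kept its direction and call under all 16 alternatives, between -2.08 and -1.95. Per transcript length, DNAJA1 was the most abundant member in controls (156.9 ± 11.1 TPM, SD, n = 3) and the 7th in treated cultures (39.8 ± 2.43 TPM). TPM divides by transcript length and so allows levels of different genes to be compared.

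The other class A genes fell by less. All 4 class A genes were called lower, DNAJA2 only narrowly and not on the TPM scales. The background was 40.3% lower of protein-coding genes, and 4 genes are few to set against it. DNAJA4, a cytosolic member with a gene sum of 1.44 ± 0.182 CPM in controls, was at 0.743 ± 0.116 CPM in treated cultures (log2 fold change -0.95 ± 0.20 SE, adjusted p = 0.000425, edgeR). Its value was -0.22 on the log2(TPM + 1) scale, which understates low genes. Most DNAJA4 counts lay on DNAJA4-209, annotated as a retained intron (72.3% in controls and 64.7% in treated cultures). The coding DNAJA4-201 held 3.31% and 13.3%, so this call says little about coding DNAJA4 mRNA. DNAJA3, the mitochondrial class A member known as TID1, went from 117.0 ± 2.66 to 88.7 ± 1.58 CPM (log2 fold change -0.40, or -0.24 on log2(TPM + 1)). DNAJA2, the abundant cytosolic relative of DNAJA1, was called lower at 179.0 ± 5.53 against 170.2 ± 1.83 CPM (-0.07, adjusted p = 0.0421), but that call held in only 2 of 16 alternatives, and the value turned to 0.003 with library totals and to 0.02 on either TPM scale. Summed TPM of class A was 280.7, 272.5 and 246.1 in controls and 154.6, 141.7 and 137.2 in treated cultures, without overlap. Most of that gap lay in DNAJA1, at 156.9 TPM in controls and 39.8 TPM in treated cultures. DNAJA2 was at 74 and 75 TPM, and DNAJA3 at 35 and 29.4 TPM.

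Among the cytosolic class B genes the highest rise was in DNAJB2 (ENSG00000135924, chromosome 2 at 219279267 to 219286900), whose product binds ubiquitinated clients and passes them toward the proteasome. It stood at 22.5, 22 and 21.7 CPM in controls and at 65.1, 65.8 and 67.7 CPM in treated cultures. Treated libraries were thus 3-fold higher with no overlap (log2 fold change 1.58 ± 0.04 SE, adjusted p = 1.81e-16, edgeR), and the call held under all 16 alternatives between 1.52 and 1.66.

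DNAJB1 (ENSG00000132002, chromosome 19 at 14514770 to 14529770), the classical heat-inducible HSP40, also rose. Its level was 173.1, 168.7 and 174.9 CPM in controls and 238.5, 223.4 and 235.6 CPM in treated cultures, a 1.35-fold difference with no overlap (log2 fold change 0.43 ± 0.03 SE, adjusted p = 8.96e-10, edgeR). Its close relatives went the other way. DNAJB4 went from 20.6 ± 1.43 to 13.4 ± 1.59 CPM (log2 fold change -0.62, adjusted p = 3.86e-05, edgeR). DNAJB5, at 4.45, 4.51 and 2.59 CPM in controls and 2.82, 2.43 and 2.07 CPM in treated cultures, overlapped between groups, and its call (-0.66, adjusted p = 0.0277) was lost in the edgeR fit without control replicate 1, control replicate 2, treated replicate 5 or treated replicate 6 (adjusted p 0.0908, 0.0828, 0.108 and 0.121).

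DNAJB6 (ENSG00000105993, chromosome 7 at 157335381 to 157417439) is a suppressor of protein aggregation, and its gene sum scarcely differed while its isoforms did. The gene stood at 242.9, 225.9 and 238.8 CPM in controls and 242.9, 251.6 and 256.0 CPM in treated cultures, so the lowest treated library was at the level of the highest control. The log2 fold change was 0.08 ± 0.03 SE (adjusted p = 0.0283, edgeR), the call was lost without control replicate 2 (adjusted p = 0.0904), and the value was 0.14 without treated replicate 4. With an offset for effective length it was 0.31, and on log2(TPM + 1) it was 0.41.

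DNAJB6 makes a long mRNA, DNAJB6-201, and a short one, DNAJB6-204, that ends in an alternative last exon. In the literature the long protein is mainly nuclear and the short one is found in cytosol and nucleus. The coding sequences share 693 bases and part at base 694, counted from 1 at the A of the start codon, and the stretch around that point is shown because the 2 mRNAs changed in opposite directions. Lower case marks the last 30 shared coding bases, capitals the bases of that isoform alone, and the capitals of the short form end in its stop codon (GENCODE 29, GRCh38, plus strand).
DNAJB6-201: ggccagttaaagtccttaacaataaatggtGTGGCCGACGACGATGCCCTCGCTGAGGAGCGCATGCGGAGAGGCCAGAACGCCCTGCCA
DNAJB6-204: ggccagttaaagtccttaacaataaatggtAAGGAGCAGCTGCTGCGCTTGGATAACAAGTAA
The first base of the short form's own part lies at 157385614 on chromosome 7, in exon 8 of 8, and that of the long form at 157409797, in exon 9 of 10. The coding sequences are 981 and 726 bases long.

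The long DNAJB6-201 was at 101.8, 93.9 and 104.4 CPM in controls and at 42.6, 46.3 and 45.6 CPM in treated cultures. The short DNAJB6-204 was at 79.1, 73.3 and 72.1 CPM in controls and at 136.6, 141.2 and 150.4 CPM in treated cultures. In each control the long form had more counts than the short one, and in each treated culture the short form had more. Counts favour the longer mRNA, and per length the short form was ahead in every library. The long form fell (log2 fold change -1.16 ± 0.06 SE, adjusted p = 4.26e-05, edgeR over all transcripts) and the short form rose (0.93 ± 0.05 SE, adjusted p = 8.32e-05). As a share of the estimated counts of the gene, DNAJB6-201 was 42.6% ± 1.28 in controls and 17.7% ± 0.433 in treated cultures (SD, n = 3 each), and DNAJB6-204 was 31.9% ± 1.35 and 56.2% ± 1.27. The test of the shares over the gene gave an adjusted p of 5.58e-10 (diffSpliceDGE of edgeR), and leaving out any 1 library gave 3.18e-08 to 1.66e-06. As shares of TPM the long form was at 18.6%, 18% and 19.6% in controls, with a mean of 18.7%, and 6.58% in treated cultures. The short form was at 29.4%, 28.5% and 27.4% in controls, with a mean of 28.4%, and 42.3% in treated cultures. The noncoding DNAJB6-217, of 551 bases, took 32.2% of TPM in controls and 29.4% in treated cultures, and the other transcripts took the rest.

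**Figure D2:**
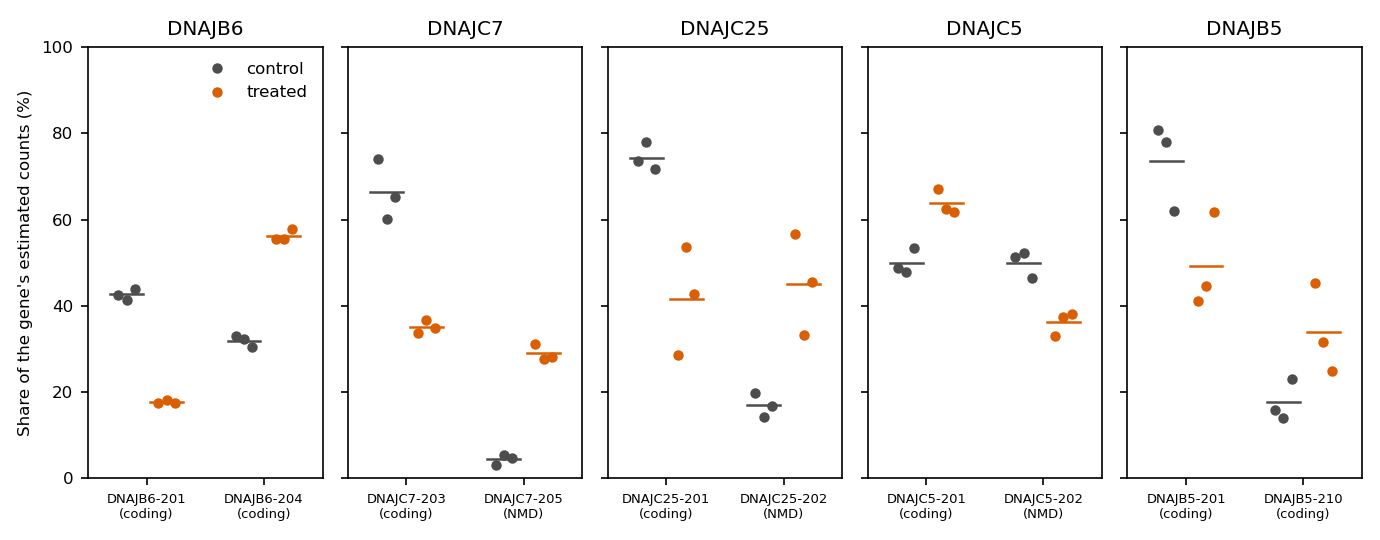
Share of a gene's estimated counts (%) taken by 2 of its transcripts, for DNAJB6, DNAJC7, DNAJC25, DNAJC5 and DNAJB5, in each control and treated library (points) with group means (lines); coding and nonsense-mediated decay (NMD) types are those of GENCODE 29. The DNAJB6 isoforms exchange order in counts between groups with no overlap (per length the short form is ahead in all 6 libraries), the DNAJC7-205 points move from 3.06-5.32% to 27.6-31.2%, and the DNAJB5 points lie close together or overlap.

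As a share of the family's summed TPM, DNAJA1 was lower in treated cultures. Several other members, such as DNAJB6, DNAJB1, DNAJC2, DNAJB2 and DNAJB9, had higher shares. DNAJA1 made up 15.2% of the summed TPM of the 45 genes in each of the 3 controls and 3.83%, 3.86% and 3.77% in the treated cultures. DNAJB6 made up 14.7%, 14.4% and 14.6% in controls and 19%, 19.3% and 19.3% in treated cultures. In controls DNAJA1 (164.7, 161.8 and 144.3 TPM) was slightly above DNAJB6 (160.0, 153.0 and 138.6 TPM) within each library, although the ranges overlapped, and DNAJC8 came next at 82.1 ± 5.41 TPM. These sums and ranks count noncoding transcripts too. The noncoding DNAJB6-217 held 32.2% of DNAJB6 TPM in controls, whereas the coding DNAJA1-201 held 98.1% of DNAJA1 TPM. For coding mRNA the 2 genes were therefore not near a tie in controls. In treated cultures DNAJB6 was first at 200.2 ± 8.92 TPM, well above DNAJC8 (76.9 ± 2.45), DNAJA2 (75 ± 4.86), DNAJC2 (73.1 ± 3.75) and DNAJB1 (72.5 ± 6), whose ranges overlapped. Summed TPM of class B was 291.3, 277.9 and 255.1 in controls and 403.7, 364.2 and 358.1 in treated cultures. A large part of that gap lay in DNAJB6, at 150.6 TPM in controls. Of 10 class B genes tested 5 were higher and 3 lower (median log2 fold change 0.06), where 38.0% and 40.3% of protein-coding genes were. The sum over the family overlapped between groups, at 952.3 to 1087.0 TPM in controls and 1000.2 to 1108.9 TPM in treated cultures.

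**Figure D3:**
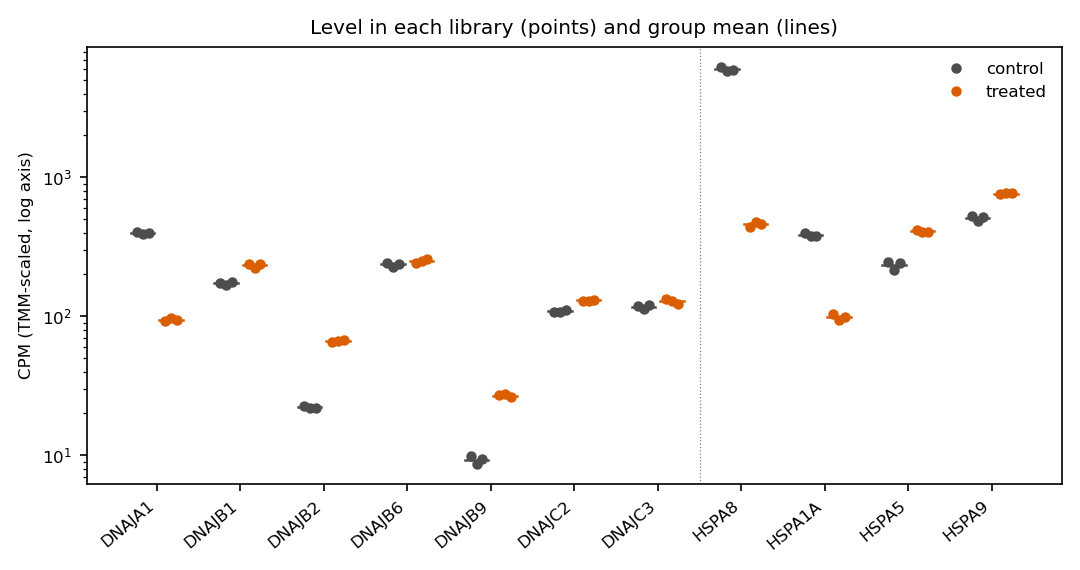
Level in CPM (log axis) of 7 DNAJ genes and, right of the dotted line, of 4 HSP70 genes, in each of the 3 control and 3 treated libraries (points) with group means (lines). DNAJA1 and HSPA8 drop together without overlap, DNAJB2 and DNAJB9 rise, and DNAJB6 and DNAJC3 stay close to their control levels.

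Of the 10 members of the endoplasmic reticulum (ER), 5 were higher, 0 were lower and 5 did not pass the test, with a median log2 fold change of 0.21; the background for a rise was 38.0% of protein-coding genes. DNAJB9 (ERdj4; ENSG00000128590, chromosome 7 at 108569568 to 108574850), a lumenal partner of the ER HSP70 that also binds the stress sensor IRE1, had the highest rise. It stood at 9.85, 8.68 and 9.33 CPM in controls and at 26.9, 27.4 and 26.3 CPM in treated cultures. The libraries did not overlap (2.89-fold, log2 fold change 1.53 ± 0.06 SE, adjusted p = 8.34e-14, edgeR).

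DNAJC1, an ER membrane protein with its J domain in the lumen, rose 1.86-fold from 17 ± 1.01 to 31.6 ± 0.814 CPM. DNAJC16 rose 1.55-fold and DNAJB12, a membrane protein of ER-associated degradation, 1.23-fold. DNAJC3 (P58IPK), a lumenal cochaperone, had 118.4, 112.9 and 120.5 CPM in controls and 132.1, 129.5 and 122.5 CPM in treated cultures, a narrow but non-overlapping rise of 1.09-fold (adjusted p = 0.00438, edgeR). The other lumenal cochaperones did not pass: DNAJB11 (ERdj3) was at 52.3 ± 3.12 and 53.8 ± 4.41 CPM, and DNAJC10 (ERdj5, a disulfide reductase) at 60 ± 4.02 and 56.9 ± 2.84 CPM.

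The membrane proteins DNAJB14 and DNAJC18 also did not pass, at log2 fold changes of -0.08 and -0.05. DNAJC14 was at 36.8, 35.6 and 36.1 CPM in controls and at 52.4, 46.8 and 38.3 CPM in treated cultures, higher in each but with a wide spread. It missed the threshold (log2 fold change 0.34 ± 0.13 SE, adjusted p = 0.0692, edgeR), passed with treated replicate 4 left out (0.27, adjusted p = 0.0265) and with treated replicate 6 left out (0.49, adjusted p = 2.51e-07), and passed in DESeq2 (0.35, adjusted p = 2.52e-05). DNAJB14 and DNAJC10 passed as lower without control replicate 3 (-0.11 and -0.13, adjusted p 0.0356 and 0.0273, edgeR), while both turned higher on the TPM scales.

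Of 7 mitochondrial members 3 were higher, 3 lower and 1 did not pass, near the background of 38.0% higher and 40.3% lower of protein-coding genes. DNAJC30, at 7.46 ± 0.236 CPM in controls and 12.4 ± 0.739 CPM in treated cultures, rose 1.67-fold, and DNAJC15, an inner membrane relative of the import motor subunit DNAJC19, rose 1.35-fold. DNAJC19 itself (TIM14) had a log2 fold change of 0.18 (adjusted p = 0.0109, edgeR), which was 0.01 with an offset for effective length (adjusted p = 0.905). DNAJC11, linked to the cristae complex of the inner membrane, went from 121.7 ± 3.94 to 77.3 ± 2.33 CPM, 1.57-fold lower (adjusted p = 1.2e-11, edgeR). DNAJC4 and DNAJA3 were lower by 1.45-fold and 1.32-fold. DNAJC28, under 1 CPM in all libraries, did not pass.

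Nuclear and ribosomal members moved little. DNAJC2, which with HSPA14 forms the ribosome-associated complex that meets new chains, was at 107.9, 107.8 and 111.4 CPM in controls and 128.9, 128.6 and 131.9 CPM in treated cultures. That was a rise of 1.19-fold without overlap (log2 fold change 0.25 ± 0.03 SE, adjusted p = 8.66e-07, edgeR). Its partner HSPA14 was lower (log2 fold change -0.57). DNAJC21, a factor of large ribosomal subunit assembly, was 1.14-fold higher. The splicing-related DNAJC8 and DNAJC17 were lower (log2 fold changes -0.22 and -0.19), and neither call held on log2(TPM + 1), where the values were -0.09 and -0.18 (adjusted p 0.371 and 0.0822, limma). DNAJC9, a histone cochaperone of dividing cells, did not pass (-0.06, adjusted p = 0.101, edgeR), although its 3 treated libraries (60.6, 61 and 60.9 CPM) lay below its controls (64, 62.4 and 64.3 CPM).

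Of the members that act at vesicles, DNAJC13 (RME-8, an endosomal sorting protein) fell from 114.4 ± 2.34 to 66.8 ± 1.37 CPM, 1.71-fold, and DNAJC6 (auxilin, which strips clathrin from vesicles) from 40.2 ± 0.794 to 24.8 ± 0.11 CPM, 1.62-fold. Both held under all 16 alternatives. DNAJC27, a small GTPase with a J domain, rose from 3.47 ± 0.5 to 6.12 ± 0.294 CPM (log2 fold change 0.82 ± 0.11 SE, adjusted p = 4.13e-06, edgeR), and with an offset for effective length its value was 0.39 (adjusted p = 0.0288). The antisense gene DNAJC27-AS1 had 154.9 estimated counts over the 6 libraries beside 1484 of DNAJC27. DNAJC5, the cysteine string protein, was 1.18-fold higher. Its relatives DNAJC5B and DNAJC5G had 11 and 9 counts over the 6 libraries and were not tested.

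The remaining cytosolic class C genes gave small values. DNAJC24, which acts in diphthamide synthesis on elongation factor 2, rose 1.16-fold, DNAJC7 fell 1.19-fold, and DNAJC12, a partner of the aromatic amino acid hydroxylases, did not pass at 3.59 ± 0.333 and 3.74 ± 0.287 CPM. With protein-coding transcripts alone DNAJC24 had a log2 fold change of 0.06 (adjusted p = 0.443, edgeR) in place of 0.22. DNAJC22, a membrane protein, was lower by 1.32-fold over all transcripts (-0.40), and its value was -0.06 (adjusted p = 0.531) with protein-coding transcripts alone. Of the testis genes, DNAJB8 and DNAJB13 had 4 and 49 counts over the 6 libraries and were not tested, and DNAJB7, at 0.682 ± 0.0732 and 0.413 ± 0.0418 CPM, was called lower (-0.72, adjusted p = 0.0193, edgeR) but not in DESeq2 (adjusted p = 0.115), nor in edgeR without control replicate 3 (adjusted p = 0.0598) or without treated replicate 6 (adjusted p = 0.0763).

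Transcript mix was tested for 36 members and changed in 12, against a background of 34.4% of 12738 genes. Of 208 transcripts of members, 30 were higher and 24 lower, where 17.5% and 15.2% of 83015 transcripts were. By type, 6 of 33 transcripts marked for nonsense-mediated decay were higher and 2 lower, and of 99 coding transcripts 19 were higher and 16 lower. Apart from DNAJB6, shares moved by at least 20 percentage points with a test past the threshold in DNAJC7, DNAJC25 and DNAJB5.

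In DNAJC7, a cochaperone with tetratricopeptide repeats that bridges HSP70 and HSP90, the coding transcript DNAJC7-203 was at 30.2, 24.3 and 28.6 CPM in controls and at 11.7, 12.7 and 13.3 CPM in treated cultures. DNAJC7-205, annotated as a target of nonsense-mediated decay, was at 1.26, 2.15 and 2.07 CPM in controls and at 10.8, 9.55 and 10.7 CPM in treated cultures. The coding form fell 2.21-fold (adjusted p = 0.000469) and the decay form rose 5.68-fold (adjusted p = 0.000575), both without overlap (edgeR over all transcripts). Shares of the gene's counts were 66.5% ± 7.05 and 35.1% ± 1.5 for DNAJC7-203 and 4.37% ± 1.17 and 29% ± 1.94 for DNAJC7-205 (share test adjusted p = 1.1e-05, diffSpliceDGE). The small fall of the gene sum, -0.25 on the log2 scale, was -1.06 with protein-coding transcripts alone (adjusted p = 4.1e-07, edgeR).

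In DNAJC25, a membrane protein, the decay form DNAJC25-202 was at 3.12, 2.01 and 2.61 CPM in controls and at 12.0, 7.27 and 9.72 CPM in treated cultures, 3.73-fold higher (adjusted p = 0.00246, edgeR over all transcripts). The coding DNAJC25-201, at 11.7, 11.0 and 11.2 CPM in controls and 6.09, 11.7 and 9.11 CPM in treated cultures, overlapped between groups and did not pass (adjusted p = 0.343). The called rise of the gene sum (1.38-fold, log2 fold change 0.47) turned to -0.33 with protein-coding transcripts alone and did not pass there (adjusted p = 0.233, edgeR). Reads of DNAJC25 may also be shared with the read-through DNAJC25-GNG10, which did not pass (2.46 ± 0.308 and 2.14 ± 0.312 CPM), so how counts divide between these genes is uncertain.

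The places where the coding and the decay forms part are shown for both genes, with the last 30 shared coding bases in lower case and the form's own bases in capitals; the capitals of the decay forms run to a stop codon that lies before the last exon. DNAJC7 is on the minus strand of chromosome 17 and its forms part at coding base 78, and DNAJC25 is on the plus strand of chromosome 9 and its forms part at coding base 337 (GENCODE 29, GRCh38).
DNAJC7-203: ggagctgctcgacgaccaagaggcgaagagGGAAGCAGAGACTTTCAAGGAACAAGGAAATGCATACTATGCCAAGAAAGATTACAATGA
DNAJC7-205: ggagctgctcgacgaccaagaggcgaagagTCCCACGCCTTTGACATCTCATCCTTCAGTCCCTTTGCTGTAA
DNAJC25-201: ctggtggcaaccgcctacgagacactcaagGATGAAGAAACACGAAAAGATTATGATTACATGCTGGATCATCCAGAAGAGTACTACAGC
DNAJC25-202: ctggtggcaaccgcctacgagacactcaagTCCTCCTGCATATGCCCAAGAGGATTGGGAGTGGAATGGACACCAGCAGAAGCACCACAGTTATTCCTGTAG
The own part of DNAJC7-205 begins at 42003557 in exon 2 of 6 and that of DNAJC25-202 at 111642857 in exon 2 of 5. The authors' index held DNAJC7-205 as 1909 bases and GENCODE 29 as 686, so the quantified model is longer than the annotated one shown here.

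DNAJB5-201, the main coding transcript of DNAJB5, was lower by 2.42-fold (adjusted p = 0.0344, edgeR), at 1.11 to 3.53 CPM over the 6 libraries. Its share test (adjusted p = 0.0328, diffSpliceDGE) was lost without control replicate 1, control replicate 2, treated replicate 4 or treated replicate 5 (adjusted p 0.144, 0.0919, 0.153 and 0.103). DNAJC5, named here after its values were seen, changed the other way from DNAJC7 and DNAJC25: the share of its coding form DNAJC5-201 was 50% ± 3.04 in controls and 63.8% ± 2.83 in treated cultures, and that of the decay form DNAJC5-202 fell by 13.8 points (share test adjusted p = 0.00114). With protein-coding transcripts alone the log2 fold change of DNAJC5 was 0.62 in place of 0.24.

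Promoters were searched for motifs of heat shock and stress factors on both strands, in windows of 250 bases before to 50 bases after RefSeq starts (GRCh38.p14), with 53 windows for 41 members. The 3-unit heat shock element (GAA, TTC and GAA in a row, each gap any 2 bases) was in 2 of the 53 windows, those of DNAJA1 and DNAJB6, against 0.49% of 35116 windows. In DNAJA1 the match GAACTTTCCAGAA begins 3 bases after the start. The shorter GAANNTTC, which lies within the longer motif and also matches itself on the other strand, was in 7 of the 53 windows, against 6.77% of all windows, and these belong to 6 members (DNAJA1, DNAJA4, DNAJB1, DNAJB6, DNAJB7 and DNAJC6). Members with a match went in both directions, as DNAJA1 and DNAJC6 fell and DNAJB1 rose. The windows of DNAJB6 (chr7:157336819-157336938, plus strand) and DNAJB1 (chr19:14518398-14518517, minus strand) are shown with the matches in capitals, to set beside the fall of DNAJA1.
DNAJB6: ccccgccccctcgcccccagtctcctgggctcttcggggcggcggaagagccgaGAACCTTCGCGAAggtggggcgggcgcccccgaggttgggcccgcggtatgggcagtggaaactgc
DNAJB1: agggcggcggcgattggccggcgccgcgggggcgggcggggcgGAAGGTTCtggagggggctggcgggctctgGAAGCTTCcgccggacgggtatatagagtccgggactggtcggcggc
The amino acid response element TGATGCAAT and the ER stress response element (CCAAT and CCACG at their fixed spacing) matched in 0 of the 53 windows, against 0.236% and 0.0769% of all windows. The unfolded protein response element TGACGTGG matched in 1 of the 53 windows, that of DNAJC10, against 0.729%. Binding of these factors was not measured here.

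The HSP70 genes, whose products the DNAJ proteins serve, were all called: of 12 tested 3 were higher and 9 lower, with a median log2 fold change of -1.22 (all genes: -0.02). Of protein-coding genes 38.0% were higher and 40.3% lower. HSPA8, the constitutive cytosolic HSP70, was at 6222.8, 5848.3 and 5906.5 CPM in controls and 441.7, 473.9 and 463.1 CPM in treated cultures (log2 fold change -3.70). Per length, HSPA8 alone exceeded the sum of the 45 DNAJ genes in each control (2510.3 to 2973.0 TPM) and was below that sum in each treated culture (218.2 to 234.9 TPM). The heat-inducible copies HSPA1A (395.6, 378.2 and 374.9 against 103.1, 93.6 and 99 CPM) and HSPA1B (127.2, 142.8 and 141.0 against 27.8, 27.5 and 30.2 CPM) were lower too, and as near-identical genes their split is uncertain.

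The 3 that rose make the HSP70 proteins of the ER and of mitochondria. HSPA5 (BiP), the partner of DNAJB9 and DNAJC3, was at 245.4, 215.3 and 242.3 CPM in controls and 416.8, 406.5 and 401.7 CPM in treated cultures. HSPA9 (mortalin), the partner of DNAJA3 and DNAJC19, had a log2 fold change of 0.58 ± 0.03 SE (adjusted p = 1.01e-11, edgeR), and HSPA13, a microsomal member, of 0.73. DNAJA3 was thus lower where its partner was higher, and the cytosolic pair DNAJA1 and HSPA8 were both lower.

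**Figure D4:**
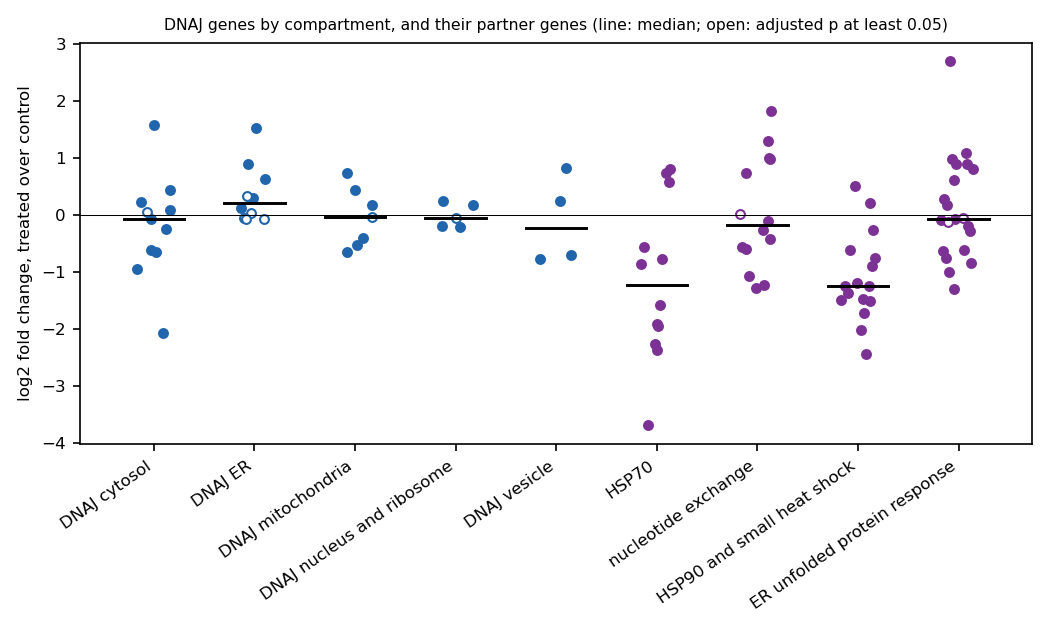
Log2 fold change, treated over control, of tested DNAJ genes by the place of their product (blue) and of 4 partner lists (purple), with the median as a line and open points for an adjusted p of at least 0.05; the read-through, testis and other members and the 2 remaining lists are not drawn. DNAJ medians lie between -0.23 and 0.21, and that of HSP70 at -1.22. The list of HSP90 and small heat shock genes, which also holds HSPD1, HSPE1, HSF1 and HSF2, has a median of -1.25.

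Of 14 nucleotide exchange factors 5 were higher and 8 lower (median -0.19). Here and for the next list the background was 38.0% higher and 40.3% lower of protein-coding genes. GRPEL2, the mitochondrial exchange factor of HSPA9, BAG5 and BAG1 were higher (log2 fold changes 1.83, 1.3 and 1), and the cytosolic HSPH1, HSPA4 and BAG2 were lower (-1.29, -1.08 and -1.24). BAG3, a partner of small heat shock proteins in autophagy, was at 128.7 ± 3.48 and 119.9 ± 1.8 CPM (-0.10, adjusted p = 0.00803, edgeR). Per length BAG3 overlapped between groups, at 26 ± 1.52 and 25.8 ± 1.63 TPM. The list of HSP90 system and small heat shock genes also held the mitochondrial chaperonin genes HSPD1 and HSPE1 and the factors HSF1 and HSF2. It had 2 higher and 14 lower of 16 (median -1.25). The lowest adjusted p among the lower ones were those of HSP90AA1 (-2.44), HSPD1 (-1.50) and HSPE1 (-1.73). HSF1, the heat shock factor, was at 70.3 ± 1.78 and 58.8 ± 0.773 CPM (-0.26, adjusted p = 3.28e-06, edgeR). Per length HSF1 overlapped between groups, at 21.7 ± 0.726 and 21.5 ± 2.53 TPM. Among J domain genes without a DNAJ symbol, GAK, the widely expressed auxilin, HSCB and PAM16 were higher (0.25, 0.37 and 0.16), and SEC63 did not pass.

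Lists of 2 stress programs were set beside DNAJB9 and DNAJB2. The background for both lists was 38.0% higher and 40.3% lower of protein-coding genes. Among ER unfolded protein response genes 9 were higher and 10 lower of 21 (median -0.08). The sensor ERN1 (IRE1, 2.71), XBP1 (1.09) and HERPUD1 (0.98) rose, while CALR (-1.01), PDIA6 (-0.64) and HSP90B1 (-0.62) fell. Folding factors went both ways, as HSPA5 of the same list was higher (0.80). DNAJB9 was higher like ERN1, XBP1, HERPUD1 and HSPA5, and DNAJB11 and DNAJC10 did not pass. Among ATF4 targets of the amino acid response 18 were higher and 1 lower of 20 (median 2.12), with DDIT3 going from 12.9 ± 0.631 to 205.1 ± 5.07 CPM. ATF4 itself, counted over matched transcripts alone, was at 9.67 ± 1.63 and 14.6 ± 1.62 CPM (log2 fold change 0.59, adjusted p = 0.00982, edgeR). By comparison the rise of DNAJB2, the highest of the family at 1.58, was below that median.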

How the data were processed

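RNA of 6 cultures of A375 cells was sequenced. The deposited tables hold, per the file headers, estimated counts (expected counts, not whole) and TPM per transcript. Per the submitters' processing notes, kallisto 0.45.0 and DESeq2 1.30.0 were used, in roles not stated; build and index release are not given in the sources used here. Of 244939 transcripts 203436 were matched by Ensembl identifier to GENCODE 29. The other 41503, with 4.86% to 5.13% of counts, were left out, so levels and shares cover matched transcripts alone. The files held 340 of 345 GENCODE 29 transcripts of members, and some had another length there. Effective length exceeded length for 25.6% to 27.1% of transcripts, which can raise or lower TPM; strand handling is not given.

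Counts were summed to genes, rounded, filtered with filterByExpr (minimum count 10, minimum total 15), scaled by TMM and tested with the two-sided robust quasi-likelihood F test of edgeR 4.0.16 (R 4.3.3, Benjamini-Hochberg over all genes, threshold 0.05). CPM use TMM-scaled totals. Transcripts were tested the same way and shares with diffSpliceDGE; both were tested on simulated data, where share calls held more false ones than the threshold implies. Errors are SD over 3 libraries or SE of the fit. Libraries of a group differed beyond sampling noise (chi-square per degree of freedom 4.53 to 12.7). The p-values weigh the difference between the groups against the spread between these cultures, with dispersion shared in part across genes. Estimated counts carry counting error and the error of dividing reads between transcripts, which these files do not give. DNAJ pseudogenes held few counts (highest DNAJC19P5, 53 counts beside 5257 of DNAJC19 over 6 libraries).

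All members may be named. Every library is given for members changed at least 2-fold and for genes fixed by name (DNAJA1, DNAJB1, DNAJB6, DNAJB9, DNAJC2, DNAJC3, HSPA8, HSPA1A, HSPA1B and HSPA5; HSPA9, HSPH1, BAG3, HSF1, ATF4 and DDIT3 are given by means or fold changes), of each partner list up to 3 genes per direction with the lowest adjusted p, and transcripts with a share change of at least 20 points. HSPA14 was added as the partner of DNAJC2 after its values were seen. The members, roles and lists were chosen with earlier results of these data known. Alternatives were RLE or library totals, DESeq2 1.42.0, no or a stricter filter (1 CPM in all 6 libraries), limma 3.58.1 on log2(TPM + 1) and log2(TPM + 0.1), an effective length offset, protein-coding transcripts alone, glmTreat, and each library left out. Part of the list of J domain genes without a DNAJ symbol is not reported here.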

Additional observations from a re-analysis of the deposited data

How the results depend on the processing

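No paired analysis was possible because control replicates are numbered 1 to 3 and treated replicates 4 to 6, with no number in common. Of 32 members called, 10 kept direction and call under every one of the 16 alternatives that gave them a value. These alternatives include glmTreat, which asks for a change beyond 1.5-fold, so members with smaller changes lose their call there by size alone. Those losses are among the 59 given below. DNAJB1 and DNAJC2, for example, kept theirs in 15 of 16, while DNAJA2 kept its call in 2. Over all members and alternatives, 558 values kept direction and call, 59 lost the call, 10 gained one and 25 changed sign; for the named transcripts 85 kept and 9 lost it. Leaving out 1 library at a time gave 16 to 18 members higher, 12 to 15 lower and 8 to 13 with changed shares. The count of lower members was 8 on log2(TPM + 1) and 8 on log2(TPM + 0.1). With glmTreat 5 members were higher and 5 lower, 4223 and 3764 genes were higher and lower, and 8 nucleotide exchange factors and 11 unfolded protein response genes were called. J domain genes without a DNAJ symbol had 2 calls on both TPM scales, 2 with the length offset and 1 with glmTreat. Signs changed mostly near 0. With library totals DNAJC18 was 0.03, DNAJC9 0.01, DNAJA2 0.003 and DNAJC28 0.04. On log2(TPM + 1) DNAJC10 was 0.15, DNAJB14 0.13, DNAJC9 0.08, DNAJA2 0.02 and DNAJC28 0.02, and on log2(TPM + 0.1) they were 0.16, 0.13, 0.09, 0.02 and 0.05. With the length offset DNAJC10 was 0.05, DNAJB11 -0.02 and DNAJB14 0.03. With protein-coding transcripts alone DNAJC18 was 0.00055 and DNAJC25 -0.33. Leaving out 1 library at a time, DNAJC12 ranged from -0.01 (without control replicate 1) to 0.15, DNAJB11 from -0.0035 (without control replicate 2) to 0.12, DNAJC18 from -0.05 to 0.04 (without treated replicate 4), and DNAJC28 from -0.10 to 0.04, with 0.03 without control replicate 1 and 0.04 without treated replicate 4 or 6. The cause was not tested. Among the 4 untested members depth limits what can be said: DNAJB8 had 4 counts over 6 libraries.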
